A study of Homo sapiens with 16 samples.

Results

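The genes of the aminoacyl-tRNA synthetases were followed in RNA of HMC3, a cell line of human microglia, either wild type or labelled knockout of METTL3. A listed set of 36 genes was taken by symbol from the 2 deposited tables, each of 60669 genes, and all 36 were found in both. Of these, 20 encode enzymes of the cytosol and 16 encode enzymes of mitochondria. KARS1 and GARS1, which also give rise to mitochondrial forms, were counted with the cytosolic enzymes. Genes of the family outside that list were not analysed here.

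METTL3 is the enzyme subunit that places N6-methyladenosine (m6A) in RNA. The labels give 16 libraries from HMC3 cells, made from 100 ng of total RNA. Smart-seq2, which starts from polyadenylated RNA, gave 5 wild-type libraries and 5 of the METTL3 KO genotype, and these are represented by the authors' deposited table of 1 comparison. A directional kit used after depletion of ribosomal RNA gave 3 libraries of each genotype, with a value for each library in TPM, a scale on which each gene's reads are divided by its length and each library is brought to the same total. The labels do not say how the knockout was made, whether it is 1 clone, or whether replicates came from separate cultures, so p-values measure only the spread between these libraries.

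The rRNA-depleted libraries were shallow, at 266130 to 487243 recovered reads in the wild type and 512597 to 1267177 in the libraries labelled knockout. Knockout-labelled libraries 1 and 2 differed by no more than sampling noise and were averaged into 1 sample, leaving 3 samples of the wild type and 2 of the knockout label. METTL3 mRNA was at 29.4 ± 3.49 TPM (wild type, SD, n = 3) against 41.2 ± 2.21 TPM (knockout label, SD, n = 2) and was thus not lower (log2 change 0.48, SE 0.19, limma adjusted p = 0.106; -0.37, adjusted p = 0.271, with the trend on GC content removed), nor was it in the authors' deposited table (log2 fold change 0.09, adjusted p = 0.654). The mRNA therefore does not check the label, and directions are given by label throughout. Of 11 microglial markers, 8 were listed at 0 TPM in all 6 libraries (AIF1, C1QA, CX3CR1, ITGAM, P2RY12, PTPRC, SPI1 and TMEM119), and the summed level of the list was at most 6.47 TPM. The summed level of 7 fibroblast or mesenchymal markers, of which LUM was at 0, was 10355 to 12827 TPM in the wild type and 1159 to 1301 TPM under the knockout label. COL1A1, a collagen chain, made up most of that sum, at 9612 to 11995 TPM against 749 to 865 TPM, while THY1 on the same list went the other way, at 121 to 131 TPM against 248 to 270 TPM. The summed level of 3 neuronal markers, of which RBFOX3 was at 0, was at most 3.63 TPM in the wild type and 10.6 to 11.9 TPM under the knockout label, and that of 3 astrocyte markers, of which AQP4 was at 0, was at most 4.59 TPM in any library. The part of these differences in the results below was not tested.

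Aminoacyl-tRNA synthetases join each amino acid to the tRNA that carries its anticodon, the step that sets which amino acid a codon means. The cytosolic enzymes serve the ribosomes of the cytosol, and a separate set, encoded in the nucleus and imported, serves the ribosomes of mitochondria. Several cytosolic enzymes sit together in the multisynthetase complex, held by scaffold proteins. Many cytosolic synthetase genes are known targets of ATF4, the transcription factor of the amino acid response, and WARS1 is known to be induced by interferon.

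In the wild-type rRNA-depleted libraries the synthetase mRNAs differed widely in level. FARSA, which encodes the alpha subunit of cytosolic phenylalanyl-tRNA synthetase, was the most abundant at 228 ± 35.9 TPM (SD, n = 3), followed by VARS1, the valyl enzyme, at 174 ± 16.97 TPM (SD, n = 3). The SDs of these neighbours do not reach each other. Next came NARS2, the mitochondrial asparaginyl enzyme, at 109 ± 9.70 TPM (SD, n = 3), within the spread of SARS1 (108 ± 16.8 TPM (SD, n = 3)), AARS1 (102 ± 21.1 TPM (SD, n = 3)) and KARS1 (101 ± 13.9 TPM (SD, n = 3)). The cytosolic median was 62.2 TPM and the mitochondrial median 20.9 TPM. At the low end, WARS2 and SARS2 had no more than 2 reads in any wild-type library and PARS2 no more than 3. Summed over their genes, the cytosolic enzymes made up 1488, 1358 and 1373 TPM in the wild type against 2459, 2428 and 2362 TPM under the knockout label, each trio of values here and below being libraries 1 to 3 in order. The mitochondrial enzymes made up 479, 419 and 476 TPM against 475, 490.3 and 417 TPM. The cytosolic sums of the 2 labels were far apart, whereas the mitochondrial sums overlapped. In bulk RNA, fewer cells of a kind and less RNA per cell cannot be told apart.

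**Figure D1:**
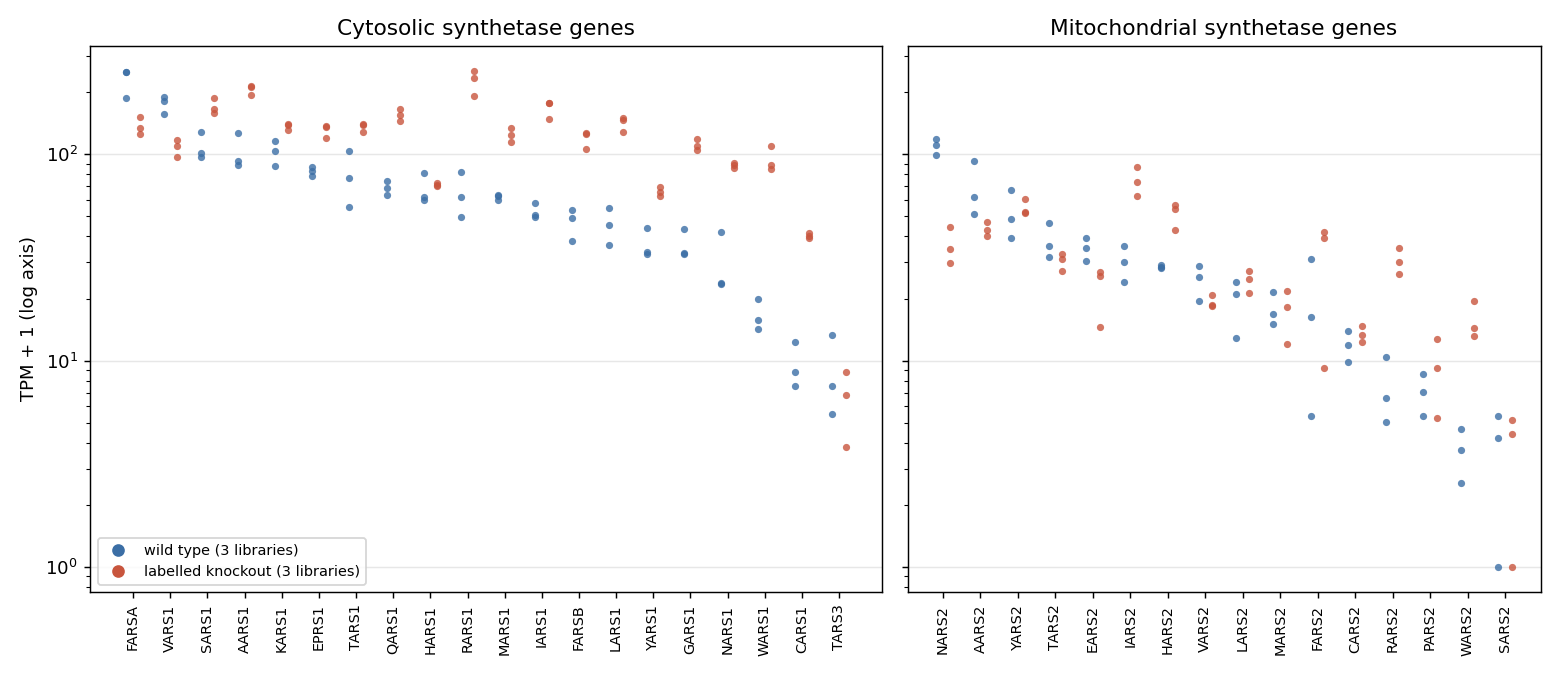
TPM + 1 (log axis) of each synthetase gene in the 3 wild-type (blue) and 3 knockout-labelled (red) rRNA-depleted libraries, cytosolic genes on the left and mitochondrial genes on the right, each ordered by wild-type mean. Each point is 1 library. Red points stand clear above blue for most cytosolic genes and clear below for FARSA, VARS1 and NARS2.

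Cytosolic synthetase mRNAs were mostly higher in the libraries labelled knockout. Of the 20 genes, 14 rose, 2 fell (FARSA and VARS1) and 4 did not pass (TARS1, KARS1, HARS1 and TARS3), by limma on log2(TPM + 1) with an adjusted p under 0.05. That is 70.0% higher, where 22.9% of the 14789 genes tested rose and 12.4% fell. The median wild-type level was 13.6 TPM over all genes tested, 62.2 TPM over the cytosolic and 20.9 TPM over the mitochondrial genes. The shares were not matched for level, and the part of level in them was not tested. Over both compartments 18 members rose and 3 fell. Values did not overlap between the labels for 22 higher and 5 lower members, where the same held for 41.1% and 21.6% of all genes. Scaled by median ratios, which lowers the median change of all genes from 0.41 to 0.11, the members split into 14 higher and 5 lower, where 16.0% of all genes rose and 16.9% fell. The median change of the cytosolic genes was 1.01 on the log2 scale, or 0.59 above the median of all genes tested. Knockout-labelled library 3 bears on the count. Without it 8 cytosolic and 1 mitochondrial genes rose and 1 gene fell, from a fit in which the lone averaged sample is assumed to vary like the wild type. Without knockout-labelled libraries 1 and 2 together, 11 genes rose, all cytosolic, and 1 fell. By alternative, EPRS1, HARS2, SARS1 and YARS1 lost their call with median ratio scaling. AARS1, EPRS1, RARS2, SARS1 and YARS1 lost it with reads thinned to the shallowest library, and EPRS1, FARSA, SARS1 and VARS1 with no trend of the variance. For left-out libraries, thinned reads and no variance trend, the share of all genes called is not given here. A loss of calls over all genes thus cannot be told from a loss particular to the members.

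WARS1, the tryptophanyl-tRNA synthetase (ENSG00000140105; chr14:100333788-100376805, minus strand, GRCh38, GENCODE 29), changed most. Its level was 18.9, 14.6 and 13.2 TPM in the wild type and 88.04, 83.6 and 109 TPM under the knockout label. All 3 knockout-labelled libraries stood far above all 3 wild-type libraries, and the means were 15.6 ± 2.99 TPM (wild type, SD, n = 3) against 97.2 ± 16.2 TPM (knockout label, SD, n = 2). The log2 change was 2.57 (limma adjusted p = 0.00233, SE 0.23). CARS1, the cysteinyl enzyme (ENSG00000110619; chr11:3000922-3057613, minus strand), was next among cytosolic genes, at 7.76, 11.3 and 6.56 TPM in the wild type and 39.1, 38.2 and 40.5 TPM under the knockout label, from 11 reads in each wild-type library. The groups did not overlap (log2 change 2.12, SE 0.32, limma adjusted p = 0.00737), although the adjusted p was 0.0603 without knockout-labelled library 3. WARS1 passed in all 17 alternative fits.

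The multisynthetase complex holds 7 of the enzymes examined, and 6 of them rose, where 22.9% of all genes did. Their median change was 0.76 above that of all genes. With the trend on GC content removed, IARS1, MARS1, QARS1 and RARS1 still rose. LARS1 and EPRS1 then did not pass, and KARS1 had a log2 change of -0.24. RARS1, the arginyl enzyme, was at 80.7, 48.4 and 61.3 TPM in the wild type and 253, 232 and 191 TPM under the knockout label. All knockout-labelled values lay above the wild-type range, and the log2 change was 1.78 (SE 0.25; limma adjusted p = 0.00606). IARS1, the isoleucyl enzyme, was at 49.8, 57.3 and 48.5 TPM in the wild type and 177, 176 and 147 TPM under the knockout label. The 2 labels did not overlap (log2 change 1.62, SE 0.15; limma adjusted p = 0.00238). LARS1, which charges leucine and also serves as a leucine sensor for mTORC1, was at 54.1, 44.6 and 35.4 TPM in the wild type and 146, 149 and 126 TPM under the knockout label. It was again higher in every knockout-labelled library (log2 change 1.61, SE 0.21, limma adjusted p = 0.00526).

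QARS1, the glutaminyl enzyme of the complex, was at 67.8, 62.2 and 73.3 TPM in the wild type and 164, 145 and 154 TPM under the knockout label, a difference of 1.18 in log2 (SE 0.12; limma adjusted p = 0.00309). MARS1, the methionyl enzyme, was at 61.5, 58.9 and 62.2 TPM in the wild type and 123, 134 and 114 TPM under the knockout label, a difference of 0.98 in log2 (SE 0.12; limma adjusted p = 0.00461). For both genes the 2 labels did not overlap. Exons of MARS1 overlap those of DDIT3 on the opposite strand in GENCODE 29, and whether the authors counted by strand is not given in the sources used here. EPRS1 carries the glutamyl and prolyl activities in 1 protein and showed a smaller difference, at 85.8, 77.9 and 82.4 TPM in the wild type and 134, 136 and 118 TPM under the knockout label (log2 change 0.62, SE 0.12; limma adjusted p = 0.0161). Relative to the median of all genes EPRS1 was 0.21 higher, and with the trend on GC content removed its change was -0.20 (limma adjusted p = 0.228). Without knockout-labelled library 3 its adjusted p was 0.0749. KARS1, the lysyl enzyme, did not pass, at 103, 115 and 86.9 TPM in the wild type and 139, 138 and 130.3 TPM under the knockout label; its log2 change of 0.41 equalled the median of all genes to 2 decimals. The summed level of the 7 enzymes was 472 ± 27.2 TPM (SD, n = 3) in the wild type against 1052 ± 99.96 TPM (SD, n = 2) under the knockout label, a 2.23-fold ratio.

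Outside the complex, NARS1, the asparaginyl enzyme, was at 22.5, 22.8 and 41.00 TPM in the wild type and 87.7, 84.4 and 90.02 TPM under the knockout label. Wild-type library 3 was higher than its 2 partners but still below every knockout-labelled library (log2 change 1.64, SE 0.30; limma adjusted p = 0.0132, or 0.0675 without knockout-labelled library 3 and 0.0882 with the GC trend removed). GARS1, the glycyl enzyme, was at 42.6, 32.4 and 31.7 TPM in the wild type and 108, 117 and 104 TPM under the knockout label, with no overlap (log2 change 1.59, SE 0.18; limma adjusted p = 0.00388). AARS1, the alanyl enzyme, was at 126, 87.4 and 91.8 TPM in the wild type and 193, 213 and 209.6 TPM under the knockout label. It was already among the most abundant in the wild-type rRNA-depleted libraries and was higher in every knockout-labelled library (log2 change 1.03, SE 0.19, limma adjusted p = 0.0123). Its call was lost with thinned reads (log2 change 0.85, limma adjusted p = 0.069). The call was also lost without knockout-labelled library 3 (log2 change 1.01).

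YARS1, the tyrosyl enzyme, was at 31.9, 32.8 and 43.01 TPM in the wild type and 62.04, 64.4 and 68.4 TPM under the knockout label, and SARS1, the seryl enzyme, at 96.01, 127 and 99.9 TPM in the wild type and 164, 157 and 187 TPM under the knockout label. For both genes every knockout-labelled library was above every wild-type library, with log2 changes of 0.87 (SE 0.19; limma adjusted p = 0.0221) for YARS1 and 0.69 (SE 0.17; limma adjusted p = 0.0275) for SARS1. Leaving out wild-type library 1 raised the adjusted p of YARS1 to 0.0537 and that of SARS1 to 0.0657, leaving out wild-type library 3 raised that of SARS1 to 0.0652, and leaving out knockout-labelled library 3 raised them to 0.142 and 0.163. With median ratio scaling the adjusted p was 0.0951 for YARS1 and 0.229 for SARS1. Of the genes that did not pass, TARS1, the threonyl enzyme, was at 75.6, 103 and 54.4 TPM in the wild type and 137, 139 and 126 TPM under the knockout label (log2 change 0.81; limma adjusted p = 0.0766). HARS1, the histidyl enzyme, was at 66.6 ± 11.4 TPM (wild type, SD, n = 3) against 69.9 ± 0.362 TPM (knockout label, SD, n = 2), and TARS3, a second threonyl enzyme, at 7.80 ± 4.07 TPM (wild type, SD, n = 3) against 4.81 ± 2.82 TPM (knockout label, SD, n = 2). The values of HARS1 and TARS3 overlapped between the labels, and TARS3 had 2 to 13 reads in a library.

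Cytosolic phenylalanyl-tRNA synthetase is built from 2 kinds of subunit, and their mRNAs moved in opposite directions. FARSA, the alpha subunit (ENSG00000179115; chr19:12922479-12934037, minus strand), was at 250.2, 187 and 248 TPM in the wild type against 134, 124 and 151 TPM under the knockout label, and fell by 0.70 on the log2 scale (SE 0.17; limma adjusted p = 0.0311). FARSB, the beta subunit (ENSG00000116120; chr2:222570536-222656337, minus strand), was at 52.6, 36.9 and 47.98 TPM in the wild type and 124, 125 and 105 TPM under the knockout label, and rose by 1.32 (SE 0.20; limma adjusted p = 0.00751). Within a library the ratio of FARSA to FARSB was 4.76, 5.07 and 5.18 in the wild type against 1.07, 0.988 and 1.43 under the knockout label. In these rRNA-depleted libraries the alpha subunit mRNA was thus in clear excess in the wild type and near parity under the knockout label. In the authors' deposited table of polyadenylated RNA the mean normalized count over both labels was 224 for FARSA and 637 for FARSB. Those counts are not scaled by length, and the excess of FARSA was not seen in them. FARSA did not pass without wild-type library 1 (adjusted p = 0.0759), without wild-type library 3 (0.0722) or without knockout-labelled library 3 (0.0797). VARS1 was the other cytosolic gene that fell, at 188, 155 and 179 TPM in the wild type against 108, 96.4 and 117 TPM under the knockout label, by 0.66 on the log2 scale (SE 0.14; limma adjusted p = 0.0177, or 0.0641 without knockout-labelled library 3).

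GC content moved with these changes. The longest GENCODE 29 transcript was 60.3% GC for FARSA and 62.6% for VARS1, the highest of the cytosolic genes, against 41.6% for FARSB and 41.4% for RARS1. Across the 36 members the Spearman correlation of log2 change with GC content was -0.49, and across 14669 genes it was -0.37; genes share libraries and are not independent. After removal of the GC trend, 9 members rose, all cytosolic (AARS1, CARS1, GARS1, IARS1, MARS1, QARS1, RARS1, WARS1 and YARS1), and 2 fell, EARS2 and NARS2, where 11.4% of all genes rose and 15.1% fell. FARSB then had a log2 change of 0.42 (limma adjusted p = 0.0983) and FARSA one of -0.51 (limma adjusted p = 0.0579). VARS1 had one of -0.32 (limma adjusted p = 0.111) and LARS1 one of 0.71 (limma adjusted p = 0.0541). Set against genes within 1 percentage point of their own GC content, 13 of 20 cytosolic genes lay above the local median. WARS1 stood 2.30 above it and QARS1 1.22, while VARS1 stood -0.38 and FARSA -0.60 from it.

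**Figure D2:**
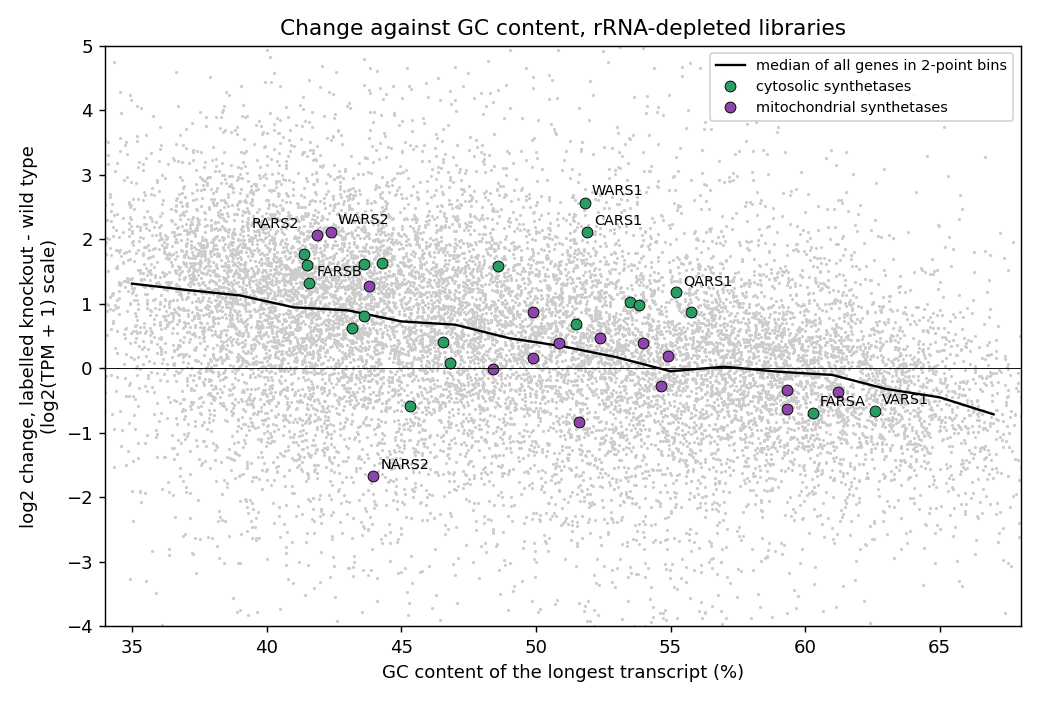
Log2 change on the log2(TPM + 1) scale against the GC content of the longest transcript in the rRNA-depleted libraries. Grey points are all genes tested within the axes, the line is their median in bins of GC content, and synthetases are green (cytosolic) or purple (mitochondrial). WARS1, CARS1 and QARS1 lie well above the line, NARS2 lies far below it, and FARSA and VARS1 lie near its lower right end.

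Start-site sequences are shown for the cytosolic genes because many of them rose together. RefSeq promoters (GRCh38.p14, 250 bases before to 50 after a start) were matched for 30 of the 36 members. The core of the amino acid response element, TGATGNAA, was searched on both strands and was present for 7 of the 16 cytosolic and 1 of the 14 mitochondrial genes matched, against 4.46% of 27305 genes. Each line gives 30 bases on the strand of the gene, with the match in capitals (TTGCATCA or TTTCATCA where the motif lies on the other strand).
CARS1: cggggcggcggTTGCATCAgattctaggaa
MARS1: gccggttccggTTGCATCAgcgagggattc
IARS1: ttttcagcgcgTTGCATCAcctccgtgcgc
GARS1: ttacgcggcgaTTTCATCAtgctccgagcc
NARS1: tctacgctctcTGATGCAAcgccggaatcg
AARS1: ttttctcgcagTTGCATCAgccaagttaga
TARS1: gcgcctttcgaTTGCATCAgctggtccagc
The windows are CARS1 chr11:3057407-3057436 (minus strand, match from -2), MARS1 chr12:57488053-57488082 (plus strand, match from -4), IARS1 chr9:92293692-92293721 (minus strand, match from -13), GARS1 chr7:30594834-30594863 (plus strand, match from -33), NARS1 chr18:57621804-57621833 (minus strand, match from 15), AARS1 chr16:70289675-70289704 (minus strand, match from -187) and TARS1 chr5:33440956-33440985 (plus strand, match from 3), where the number is the first base of the match counted from the start, negative before it.
The mitochondrial match was in YARS2, 197 bases before the start. Of the 7 cytosolic genes with a match, 6 rose and TARS1 did not pass. Of the 9 cytosolic genes matched to a promoter without the motif, 6 rose as well (EPRS1, FARSB, QARS1, RARS1, SARS1 and WARS1), FARSA fell, and HARS1 and KARS1 did not pass, so genes rose with and without it. WARS1 had no match to TGATGNAA. The core of the interferon response element was searched in the same way and was found for 2 of the 30 members matched, WARS1 and EARS2. That is 1 of 16 cytosolic and 1 of 14 mitochondrial genes, against 4.38% of 27305 genes. With 2 genes, no difference from that share can be read. No member held both motifs. The match in WARS1 lies 55 bases before the downstream of its 2 annotated starts, and the 100 bases before that start (chr14:100375348-100375447, minus strand) are given with the match in capitals.
WARS1: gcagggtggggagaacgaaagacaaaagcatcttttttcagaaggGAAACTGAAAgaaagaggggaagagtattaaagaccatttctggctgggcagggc
A match describes these letters and is neither a site nor a cause.

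Mitochondrial synthetase mRNAs moved in both directions, and most did not pass. Of 16 genes, 4 rose (WARS2, RARS2, IARS2 and HARS2), 1 fell (NARS2) and 11 did not pass. The share that rose, 25.0%, is near the 22.9% of all genes. Their median change lay -0.23 from that of all genes, and -0.33 with WARS2, PARS2 and SARS2, whose wild-type libraries held at most 3 reads, set at the bound that 3 reads allow.

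NARS2 (ENSG00000137513; chr11:78435961-78574874, minus strand, GRCh38) fell most of all members. It was at 110.1, 98.5 and 118 TPM in the wild type against 43.6, 33.9 and 28.7 TPM under the knockout label. Every knockout-labelled library was below the lowest wild-type library, with means of 109 ± 9.70 TPM (wild type, SD, n = 3) against 33.7 ± 7.11 TPM (knockout label, SD, n = 2), a fall of 1.67 on the log2 scale (SE 0.18; limma adjusted p = 0.00328). The call held in all 17 alternative fits, and its GC content of 43.9% is that of genes whose median change was 0.89.

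IARS2, the mitochondrial isoleucyl enzyme, was at 28.9, 34.8 and 23.00 TPM in the wild type and 72.4, 86.1 and 62.02 TPM under the knockout label (log2 change 1.27, SE 0.24; limma adjusted p = 0.0137). HARS2, the mitochondrial histidyl enzyme, was at 27.02, 27.3 and 28.1 TPM in the wild type and 56.1, 41.8 and 53.1 TPM under the knockout label (log2 change 0.87, SE 0.16; limma adjusted p = 0.0129). Both were higher in every knockout-labelled library. HARS2 and HARS1 start head to head, and reads from the exon positions they share, 11.7% of the exon length of HARS2 and 5.56% of that of HARS1, cannot be told apart without strand. WARS2 rests on 2, 1 and 1 reads in the wild-type and 14, 26 and 8 in the knockout-labelled libraries, and was at least 2.36-fold higher when 3 reads are allowed in each wild-type library (limma adjusted p = 0.0205). RARS2, the mitochondrial arginyl enzyme, was at 5.57, 4.07 and 9.41 TPM in the wild type and 34.2, 29.1 and 25.4 TPM under the knockout label, from 2, 1 and 4 wild-type reads (log2 change 2.06, SE 0.42; limma adjusted p = 0.0177). Without knockout-labelled library 3 the adjusted p was 0.129 for HARS2, 0.133 for WARS2 and 0.0845 for RARS2, and with the GC trend removed none of the 4 passed (adjusted p = 0.0805 to 0.205).

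Among the 11 that did not pass, EARS2, the mitochondrial glutamyl enzyme, was at 38.3, 34.3 and 29.3 TPM in the wild type against 24.6, 25.8 and 13.5 TPM under the knockout label, and AARS2, the alanyl enzyme, at 60.97, 50.6 and 91.9 TPM in the wild type against 38.99, 45.9 and 42.1 TPM under the knockout label. The knockout-labelled values of both genes lay below the wild-type range (log2 change -0.83, limma adjusted p = 0.0976, and -0.63, limma adjusted p = 0.135). EARS2 passed with median ratio scaling (limma adjusted p = 0.0345), with quantile normalization (0.0349) and with the GC trend removed (0.0467). AARS2 passed in 1 of 17 alternatives. The log2 changes of the other 9 (CARS2, FARS2, LARS2, MARS2, PARS2, SARS2, TARS2, VARS2 and YARS2) ran from -0.37 for SARS2 to 0.47 for FARS2. FARS2, the mitochondrial phenylalanyl enzyme, was the most uneven, at 30.1, 4.40 and 15.3 TPM in the wild type and 38.5, 40.8 and 8.24 TPM under the knockout label. Exons of SARS2 share 46.2% of their length with the gene that overlaps them most and those of VARS2 21.99%, so both are uncertain.

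A ratio of TPM between the 2 compartments within a library does not depend on a scaling factor of the library. Median GC content was 47.7% for the cytosolic and 51.2% for the mitochondrial genes, and the trend on GC content does not cancel in such a ratio. It could be formed in every library for 17 pairs of a cytosolic and a mitochondrial gene for the same amino acid, SARS1 and SARS2 being left out because SARS2 was at 0 in 2 libraries. The mean log2 ratio was higher under the knockout label in 12 pairs and lower in 5, with a median change of 0.72. Counting libraries 1 and 2 as averaged, 9 of the 12 and 1 of the 5 did not overlap between labels. Of all single genes, 41.1% were higher and 21.6% lower without overlap, and no such share was computed over other gene pairs. EPRS1, FARS2 and TARS2 each enter more than 1 pair, so the pairs are not independent. The largest change was for asparagine. The ratio of NARS1 to NARS2 was 0.205, 0.231 and 0.348 in the wild type against 2.01, 2.49 and 3.14 under the knockout label. Among these rRNA-depleted libraries, the mitochondrial mRNA was thus the more abundant in all of the wild type. The cytosolic mRNA was the more abundant in all of the knockout label. In the authors' deposited table the mean normalized count over both labels was 454 for NARS1 and 74.7 for NARS2. With log2 fold changes of 0.23 and -0.42 and counts not scaled by length, the wild-type order above was not seen there. The only non-overlapping ratio that went down was HARS1 to HARS2, from 2.27, 2.92 and 2.10 to 1.28, 1.65 and 1.31. For tryptophan, where WARS1 and WARS2 both rose, the ratio overlapped between labels. In the authors' deposited table the cytosolic minus mitochondrial log2 fold change was positive in 12 of 18 pairs and negative in 6 (median 0.22). These 18 include SARS1 with SARS2. Among the negative were CARS1 with CARS2 (-1.13) and MARS1 with MARS2 (-0.87), whose ratios rose without overlap in rRNA-depleted RNA.

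**Figure D3:**
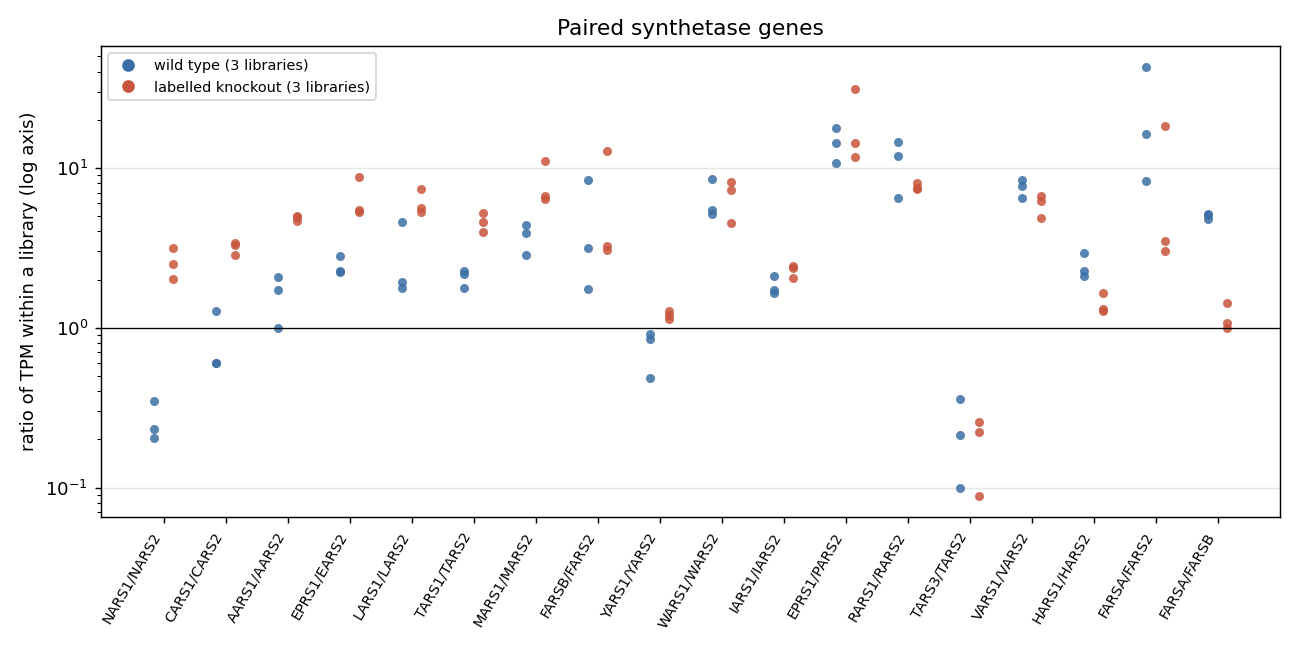
Ratio of TPM within a library (log axis) for 17 pairs of cytosolic and mitochondrial synthetase genes and, at the right, for FARSA and FARSB; the pair of SARS1 and SARS2 is left out because SARS2 was at 0 in 2 libraries. Blue points are the 3 wild-type and red points the 3 knockout-labelled rRNA-depleted libraries. NARS1/NARS2 crosses 1 between the labels and FARSA/FARSB falls from near 5 to near 1.

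In polyadenylated RNA the differences were smaller and went both ways. By the authors' deposited table, 7 of the 36 genes rose and 6 fell at an adjusted p under 0.05, which is 19.4% and 16.7% of the members, where 9.55% of 14009 genes rose and 10.3% fell. In the authors' deposited table the members' median log2 fold change was -0.04 and that of all genes 0.02. The genes that rose in the authors' deposited table were MARS2 (0.64, SE 0.20, adjusted p = 0.0133), WARS1 (0.46, SE 0.10, adjusted p = 9e-05), HARS2 (0.44), LARS1 (0.36, SE 0.06, adjusted p = 1.92e-07), RARS1 (0.30), NARS1 (0.23) and HARS1 (0.19). Those that fell in the authors' deposited table were AARS2 (-0.75, SE 0.26, adjusted p = 0.0233), VARS1 (-0.68, SE 0.14, adjusted p = 2.45e-05), NARS2 (-0.42), EARS2 (-0.42), YARS1 (-0.28) and MARS1 (-0.24). Requiring an absolute log2 fold change of 0.5 in the authors' deposited table leaves 1 higher, MARS2, and 2 lower, AARS2 and VARS1. WARS1 had the highest mean normalized count of the members in the authors' deposited table, 1371, and SARS2 the lowest, 1.31.

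Both library types called 9 members. HARS2, LARS1, NARS1, RARS1 and WARS1 were higher in both, 5 of 36 where 5.18% of 12498 genes were, if a positive value in that table means higher under the knockout label. With the opposite sign 2 members would be higher in both, MARS1 and YARS1, where 3.03% of genes would be, and 0 lower in both, where 0.440% would be. With the sign as taken, NARS2 and VARS1 were lower in both, where 1.96% of genes were. MARS1 and YARS1 rose in the rRNA-depleted libraries and fell in the authors' deposited table, as 3.47% of genes did in one direction or the other. CARS1, the second largest change among cytosolic genes in rRNA-depleted RNA, had a log2 fold change of -0.17 (SE 0.12, adjusted p = 0.353) in the authors' deposited table. IARS1 had 0.11 (adjusted p = 0.279) and GARS1 0.08 (adjusted p = 0.518) in the authors' deposited table. FARSA and FARSB, which parted in rRNA-depleted RNA, had -0.02 (SE 0.10) and 0.02 (SE 0.06) in the authors' deposited table. The 2 library types differ in chemistry, depth and samples, and no test of their difference was made.

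**Figure D4:**
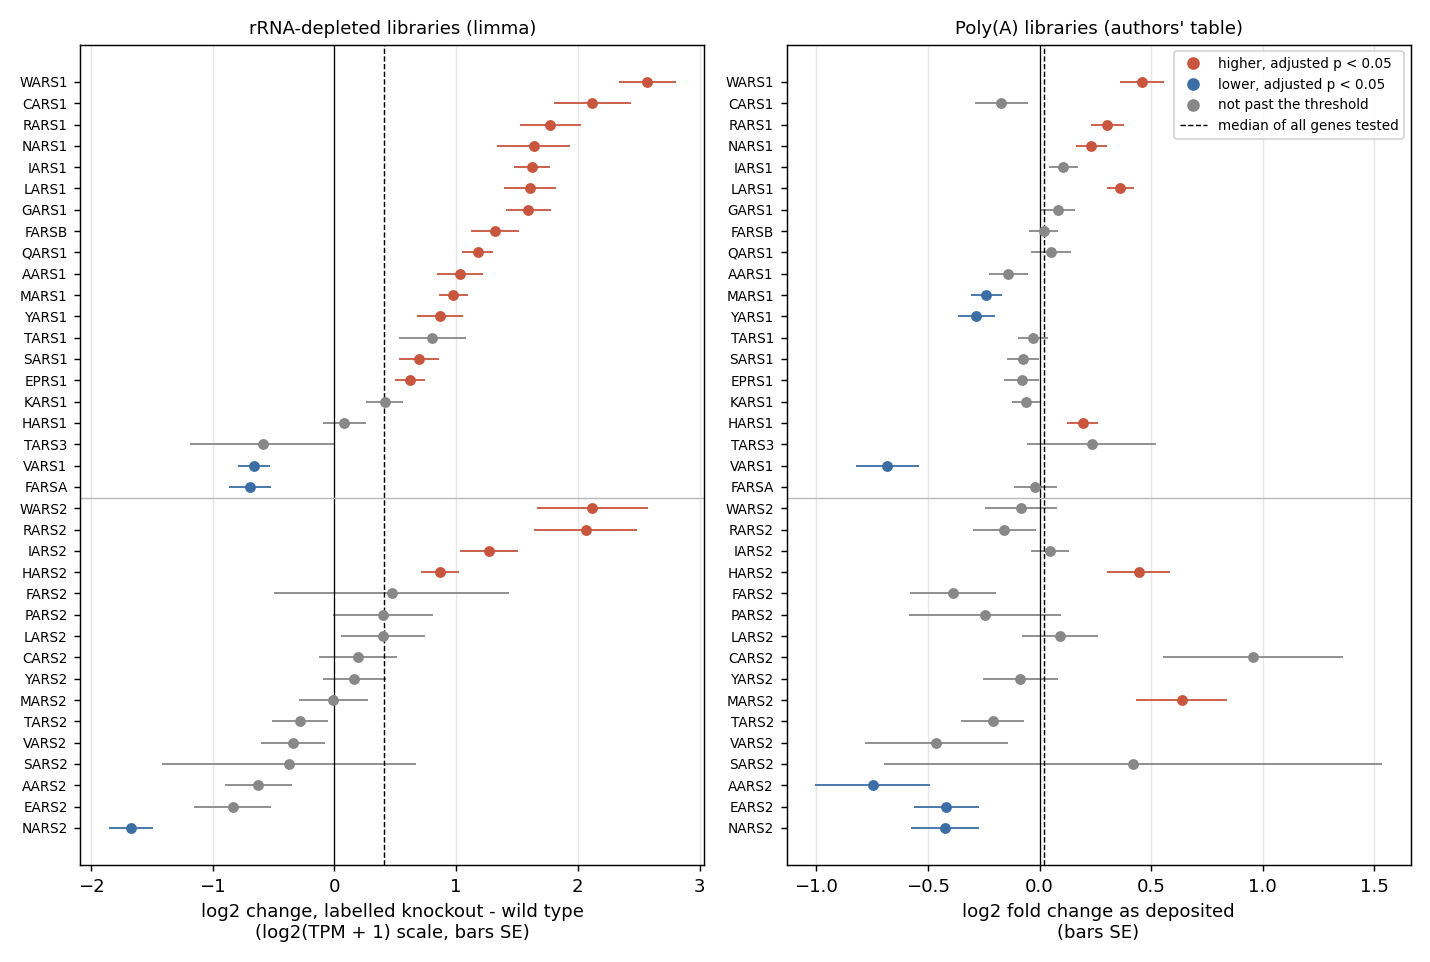
Log2 change under the knockout label of each synthetase gene, cytosolic above and mitochondrial below the grey line, in rRNA-depleted libraries (left, limma, bars SE) and in the authors' deposited poly(A) table (right, bars SE, a narrower axis). Red marks higher and blue lower at an adjusted p under 0.05, grey not passed, and the dashed line the median of all genes tested. Most cytosolic genes are red on the left, and few of them are red on the right.

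The genes that work beside the synthetases were taken from lists of their roles. Of 18 such genes, 2 rose and 2 fell in the rRNA-depleted libraries, where 22.9% and 12.4% of all genes did, with a median change -0.27 from that of all genes. Of the 3 scaffold proteins of the multisynthetase complex, AIMP1 rose, while AIMP2 and EEF1E1 did not pass. AIMP1 was at 6.38, 12.4 and 14.4 TPM in the wild type and 39.3, 38.7 and 36.9 TPM under the knockout label (log2 change 1.76, SE 0.39, limma adjusted p = 0.0223). Its wild-type values rest on 3, 4 and 8 reads. The call of AIMP1 was lost without knockout-labelled library 3 (limma adjusted p = 0.104), without libraries 1 and 2 (0.0904), with thinned reads (0.0607) and with the GC trend removed, where its log2 change was 0.55 (limma adjusted p = 0.36). GATC, a subunit of the amidotransferase that makes glutaminyl-tRNA in mitochondria, fell, at 129.7, 122 and 129.97 TPM in the wild type against 34.1, 27.3 and 33.6 TPM under the knockout label. Its groups were far apart (log2 change -1.95, SE 0.12; limma adjusted p = 0.00124), and its partners GATB and QRSL1 and the formyltransferase MTFMT did not pass. TUFM, the elongation factor that brings charged tRNA to the mitochondrial ribosome, fell, at 396, 369 and 488 TPM in the wild type against 258, 299 and 267 TPM under the knockout label (log2 change -0.60, SE 0.14; limma adjusted p = 0.028), and fell in the authors' deposited table as well (-0.50, SE 0.07, adjusted p = 1.2e-11). Without wild-type library 1 its limma adjusted p was 0.0563, without knockout-labelled library 3 it was 0.133, without libraries 1 and 2 it was 0.0904 and with no variance trend it was 0.105. SEPSECS, which completes selenocysteine on its tRNA, was at the floor in the wild type and at least 1.32-fold higher under the knockout label. Its limma adjusted p was 0.0229, or 0.0545 without wild-type library 1 and 0.0503 without wild-type library 2, and it did not pass with a pseudocount of 0.1 (0.0625), with no filter on low values (0.0736) or with the GC trend removed (0.165). The proofreading genes (DTD1, DTD2 and AARSD1), the tRNA end maturation genes (TRNT1 and ELAC2), EEF1A1, EEF1A2, PSTK and EEFSEC did not pass. In the authors' deposited table SEPSECS rose, TUFM and DTD1 fell and the other 15 did not pass.

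The amino acid response list holds 24 genes outside the family: ATF4, its upstream kinase EIF2AK4, and genes known as targets or partners of ATF4. In rRNA-depleted RNA 12 of the 24 rose and 1 fell, and 11 did not pass, where 22.9% of all genes rose and 12.4% fell. With median ratio scaling 7 rose, where 16.0% of all genes did. With thinned reads or with no variance trend 7 rose as well, and the share of all genes called was not taken for those fits. Fewer also rose without knockout-labelled library 3 or without libraries 1 and 2, which leaves a lone knockout-labelled sample. The count of this list with the GC trend removed is not given here. SLC38A2, an amino acid transporter, was at 31.1, 25.1 and 27.2 TPM in the wild type and 334, 304 and 232 TPM under the knockout label (log2 change 3.25, SE 0.19; limma adjusted p = 0.00112). ASNS, which makes asparagine, was at the floor in the wild type and at least 9.62-fold higher under the knockout label (limma adjusted p = 0.00491). PSAT1, of serine synthesis, was at 22.7, 42.6 and 51.99 TPM in the wild type and 265, 237 and 259.7 TPM under the knockout label (log2 change 2.76, SE 0.36; limma adjusted p = 0.00504). DDIT3 also rose, at 16.8, 16.3 and 23.6 TPM in the wild type and 71.5, 77.9 and 66.3 TPM under the knockout label (log2 change 1.86, SE 0.23, limma adjusted p = 0.00458). Its wild-type values rest on about 3.1, 2.1 and 5.2 recovered reads, near the floor. DDIT3 shares exon positions with MARS1 as described. The gene that fell was ATF4 itself, at 755, 601 and 800.1 TPM in the wild type against 224, 236 and 188 TPM under the knockout label. Its mRNA was lower in every knockout-labelled library (log2 change -1.77, SE 0.17; limma adjusted p = 0.00254), while ATF4 protein, which is controlled by translation, was not measured. Among the 11 that did not pass, the log2 change was negative for TRIB3 (-0.41), SLC3A2 (-0.04), ATF5 (-0.49), CEBPB (-0.51) and NUPR1 (-1.61). Of the 24, the authors' deposited table had 4 that rose (EIF2AK4, CHAC1, SLC38A2 and VLDLR), where 9.55% of all genes rose, and 0 fell. ATF4 had a log2 fold change of -0.20 (SE 0.13, adjusted p = 0.314) in the authors' deposited table. ASNS (-0.06), PSAT1 (0.13) and DDIT3 (-0.47) did not pass there.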

How the data were processed

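RNA was measured in 16 libraries, grouped as the labels give their genotype and selection. The submitters' processing notes name Trimmomatic, STAR, DESeq2 and hg38; annotation, counting and use of strand are not given in the sources used here. For poly(A) RNA the authors deposited 1 table which, per the file headers, gives each gene 1 pooled signal (the mean normalized count), the log2 fold change and its SE (both log2), the Wald score, and the p-value before and after adjustment. It has no value for a single library, so it is described and not retested. A positive value was taken as higher under the knockout label, because the table is named for it and because 91.5% of the 177 genes called in both library types by 1 or more in log2 then had the same sign, as did 67.3% of all 1327 genes called in both; otherwise every direction from that table would be opposite. For rRNA-depleted RNA the authors deposited TPM, which sum to 1000000 in each library.

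Reads were recovered from TPM with exon lengths of GENCODE 29 (90.9% of values whole to within 0.02 reads). No difference beyond sampling noise was found between knockout-labelled libraries 1 and 2 over 10120 genes (chi-square test, 1.02 per degree of freedom with p = 0.065; the other pairs of 1 label gave 1.16 to 1.53) and they were averaged, although separate samples can also differ this little. The floor is 3 reads: a group with no library above it is called at the floor, and folds against it use that count in each library, which covers counting error only. limma 3.58.1 in R 4.3.3 (lmFit, eBayes with trend) was run on log2(TPM + 1), which understates the change of low genes. It was run for genes that reached 1 TPM in 3 or more libraries, with Benjamini-Hochberg adjustment over 14789 genes at 0.05. The simulated data on which it was tested held no GC trend and no shift of all genes. That test therefore does not bear on such effects in these libraries. Relative changes subtract the median of all genes. The GC trend was removed per library with a lowess span of 0.3. Other steps used Python 3.11.15, pandas 2.3.3, numpy 2.4.6, scipy 1.17.1 and matplotlib 3.10.9. Members, lists and tests were chosen with earlier results of these data known; the text names members of those lists, and gives every library for members that passed. Alternatives covered the pseudocount, filters, scaling, GC content, depth, the replicate block and each library left out. The counts by compartment and the alternatives for METTL3 and the other listed genes were added after seeing the data.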

Additional observations from a re-analysis of the deposited data

How the results depend on the processing

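Counts of members that rose and fell were 18 and 3, and stayed at 18 and 3 with a pseudocount of 0.1, with a minimum of 5 TPM and with no filter on low values. They were 14 and 5 with median ratio scaling, 18 and 4 with quantile normalization, 13 and 3 with reads thinned to the shallowest library, 16 and 1 with no variance trend, 9 and 2 with the GC trend removed and 9 and 1 at an adjusted p under 0.01. Replicate numbers did not pair the samples (correlations of same-numbered deviations 0.02, -0.02 and 0.008); the 6 libraries kept separate gave 20 and 3, with and without the replicate block. Leaving out 1 library gave 9 to 19 higher and 1 to 3 lower, with the low end without knockout-labelled library 3; leaving out knockout-labelled libraries 1 and 2 together gave 11 and 1. Cytosolic genes that rose, 14, were 9 with the GC trend removed and 9 at 0.01, and 8 to 15 with 1 library left out. Mitochondrial genes that rose, 4, were 0 with the GC trend removed, 0 at 0.01, 0 without knockout-labelled libraries 1 and 2, and 1 to 4 with 1 library left out. The cytosolic median relative to all genes, 0.59, was 0.48 with a pseudocount of 0.1, 0.91 with quantile normalization, 0.72 with the GC trend removed, 0.68 without knockout-labelled libraries 1 and 2 and 0.54 to 0.68 with 1 library left out. The mitochondrial median, -0.23, was -0.072 with the GC trend removed, -0.38 with thinned reads, -0.34 with a pseudocount of 0.1, -0.13 without knockout-labelled libraries 1 and 2 and -0.36 to -0.15 with 1 library left out, the ends being without wild-type library 2 and without knockout-labelled library 3. Of 21 called members, 7 kept their call in all 17 alternatives (GARS1, IARS1, MARS1, NARS2, QARS1, RARS1 and WARS1), and EPRS1 alone changed sign, to -0.20 with the GC trend removed. Of 15 members that had not passed, 4 passed in at least 1 alternative (AARS2, EARS2, KARS1 and TARS1). Members that had not passed changed sign as follows. With median ratio scaling CARS2 was -0.14, YARS2 -0.18 and HARS1 -0.27. With quantile normalization CARS2 was -0.22, PARS2 -0.0089 and HARS1 -0.015. With the GC trend removed KARS1 was -0.24, YARS2 -0.25 and HARS1 -0.55, and METTL3, which is the targeted gene and not a member, was -0.37. With thinned reads LARS2 was -0.046, CARS2 -0.23, YARS2 -0.24, FARS2 -0.0041, HARS1 -0.22 and MARS2 0.61. With 1 library left out SARS2 ranged from -1.12 to 0.75, YARS2 from -0.010 to 0.37, FARS2 from -0.22 to 1.54 and MARS2 from -0.25 to 0.17; without knockout-labelled libraries 1 and 2 FARS2 was -0.60 and MARS2 0.039. In the authors' deposited table, counts of 7 and 6 became 4 and 3 at an adjusted p under 0.01 and 1 and 2 when a change of 0.5 or more in log2 was also required. The cause of these shifts was not tested. In rRNA-depleted RNA the share of all genes called was taken only for the main fit, median ratio scaling and the GC trend removed. For the other alternatives, a loss of calls over all genes cannot be told from a loss particular to the members. Depth limits the genes with few wild-type reads, WARS2, SARS2, PARS2, RARS2 and TARS3, most.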

Other observations

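GGACT, a common form of the m6A consensus, was counted in the longest GENCODE 29 transcript of each gene. The median density was 0.89 per kb over 14669 genes tested, 1.15 over the 20 cytosolic and 1.67 over the 16 mitochondrial synthetase genes. Among members the Spearman correlation of the rRNA-depleted log2 change with this density was -0.28, against -0.09 over 14669 genes. By compartment it was -0.30 in the 20 cytosolic and 0.04 in the 16 mitochondrial genes. For the fold changes of the authors' deposited table the correlation among all members was -0.35. Points share libraries and base composition. RARS2, which rose in rRNA-depleted RNA, held 8 copies, the highest density of the members at 4.40 per kb, and WARS2, which also rose, held 0. The letters say nothing of which sites are methylated, and methylation was not measured here.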
